A study of Homo sapiens with 3 samples.

Results

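Regulators of the limbal progenitor and of the basal epithelial cell were read in stratified cultures of iHCE, a line of human corneal epithelial cells immortalized with SV40. The 7 genes chosen were *TP63*, *TRIM29*, *SFN*, *SERPINB5*, *BMI1*, *CEBPD* and *SOX9*, and every probe set annotated to exactly 1 gene with one of these symbols was kept. Such probe sets were found for 5 of the 7 genes, 11 probe sets among the 19071 that name 1 gene. *TP63* and *BMI1* had none and were not analysed here, so the values describe *TRIM29*, *SFN*, *SERPINB5*, *CEBPD* and *SOX9*, 5 of 11963 measured genes.

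The corneal epithelium is renewed from progenitor cells in the basal layer of the limbus, the rim between cornea and conjunctiva. In stratified epithelia the transcription factor p63 maintains the proliferative basal layer, and *SFN* and *SERPINB5* are known targets of the p53 family to which p63 belongs. C/EBPδ, the product of *CEBPD*, has been linked to the quiescence of limbal stem cells, BMI1 is a Polycomb protein associated with self-renewal, and SOX9 marks progenitors in several epithelia. In the iHCE the viral large T antigen binds and inactivates p53 and the retinoblastoma protein.

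RNA came from 3 independent culture batches, called cultures 1, 2 and 3, each hybridized to 1 Affymetrix HG-U133A array. All cultures were iHCE at passages 22 to 23, grown submerged on collagen-coated filters for 1 week and then at an air-liquid interface, and their electrical resistances were 489, 439 and 468 Ω · cm2, above the required 300. With no second condition among the arrays used, genes were not compared between groups, and arrays of corneal tissue were not analysed here. The medium held serum, insulin, cholera toxin, EGF and DMSO, with ascorbic acid added from the air-lift on, and all samples came from a single cell line.

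The values are log2 expression values made by the authors with RMA, which ran from 3.29 to 14.69. The background threshold of an array was the value under which 95% of a panel stayed, made of 56 measured genes that mark other tissues, and a probe set past all 3 thresholds was called above background. These thresholds were 7.53, 7.26 and 7.29 on the arrays of cultures 1, 2 and 3. A gene was above background when at least 1 of its probe sets was. The distance of a probe set over the threshold was tested with limma (one-sided, adjusted after Benjamini and Hochberg over all probe sets of 1 gene). Because probe affinities vary, values of separate probe sets are not amounts that can be ranked. In bulk RNA, fewer expressing cells and less RNA per cell cannot be told apart.

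Array 1 stood somewhat apart. A difference of at least 1 log2 unit was seen at 185 probe sets for culture 1 against 2, at 222 for 1 against 3 and at 13 for 2 against 3. The median of 27 poly-A control probe sets was 5.34, 6.59 and 6.63 on arrays 1, 2 and 3, below each threshold. All 6 general epithelial markers, among them *EPCAM*, *CDH1* and *KRT18*, were above background, and none of the 5 corneal markers *KRT3*, *KRT12*, *PAX6*, *ALDH3A1* and *CLU* was. None of 22 measured markers of other cells of the ocular surface (stromal keratocytes, conjunctival and endothelial cells, melanocytes and immune cells) was above background. The conjunctival markers were *KRT13*, *KRT4*, *MUC5AC*, *TFF1* and *TFF3*. *KRT7* (mean 10.42) and *KRT19* (mean 11.10) were counted among the general epithelial markers, so the result for conjunctival cells depends on this sorting.

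*SFN*, *SERPINB5* and *CEBPD* were above background in the iHCE cultures, and *SOX9* and *TRIM29* were not. In probe sets, 5 of 11 were above background on every array, while 31.2% of all probe sets of 1 gene were. In genes this was 3 of 5, against 39.5% of all measured genes. Neither count was read as a difference from the rest of the array. The same 5 probe sets passed the limma test, which called 30.1% of all probe sets. Another 5 member probe sets exceeded the threshold on no array, and 1, of *SOX9*, exceeded it on the array of culture 3 alone.

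**Figure D1:**
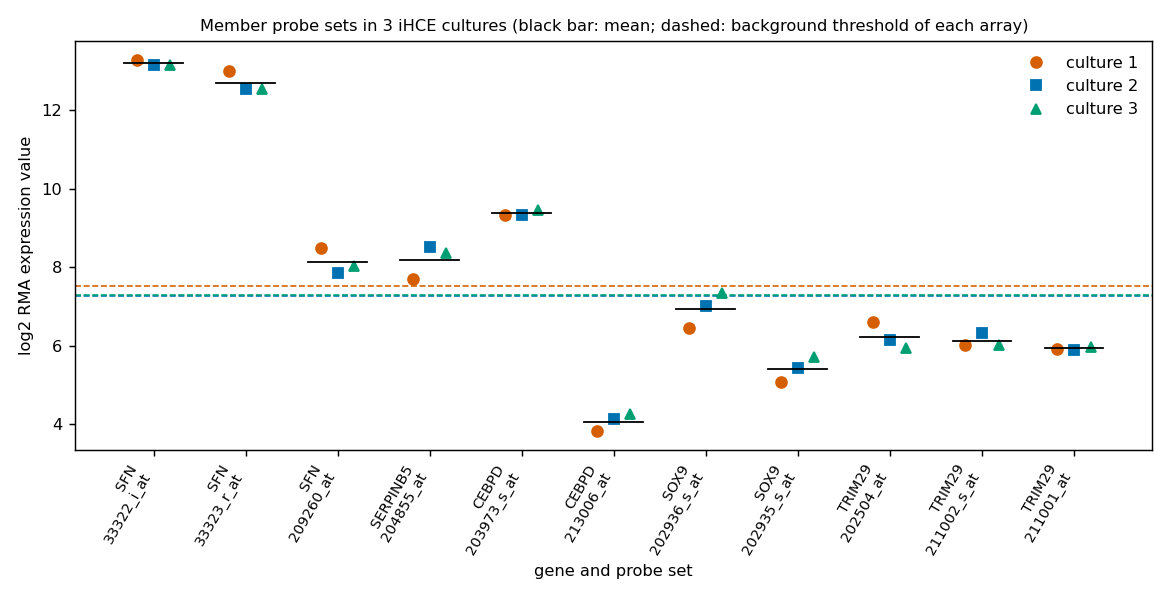
Log2 RMA expression value (vertical axis) of the 11 member probe sets (horizontal axis) in cultures 1, 2 and 3, with the mean as a black bar and the background threshold of each array as a dashed line. The 3 probe sets of SFN, that of SERPINB5 and 1 of 2 of CEBPD lie above all thresholds. Each reading of TRIM29 lies at least 0.92 log2 units below the threshold of its own array.

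*SFN* encodes stratifin, the epithelial member of the 14-3-3 family of phosphoprotein-binding adaptors, which holds mitotic kinase complexes in the cytoplasm after DNA damage. Its probe set 33322_i_at read 13.28, 13.14 and 13.16 in cultures 1, 2 and 3, or 13.19 ± 0.07 (mean ± SD, n = 3 cultures). The probe set 33323_r_at read 12.98, 12.55 and 12.55. Both lay far over background in every culture, by 5.83 ± 0.12 and 5.33 ± 0.12 log2 units (mean ± SE, limma adjusted p = 5.2e-12 and 8.1e-12). The suffixes of these probe sets mark designs under relaxed selection rules.

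The standard probe set of *SFN*, 209260_at, read 8.50, 7.85 and 8.04. It was above background too, by 0.77 ± 0.12 log2 units (SE, limma adjusted p = 1.5e-04), though with a far smaller margin than the other probe sets of the gene. Its mean of 8.13 ± 0.34 (SD, n = 3) lay close enough to the threshold for the choice of threshold to matter. With the median of the panel plus 3 scaled median absolute deviations it was 0.26 log2 units over, which did not pass the limma test (adjusted p = 0.29). All 3 probe sets of *SFN* were highest in culture 1, the culture whose array stood apart.

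*SERPINB5* encodes maspin, a clade B serpin of epithelial cells that does not act as a protease inhibitor in the classical way. Its only probe set, 204855_at, read 7.70, 8.52 and 8.36 in cultures 1, 2 and 3, or 8.20 ± 0.44 (SD, n = 3). It was 0.84 ± 0.18 log2 units over the threshold (SE, 95% interval 0.43 to 1.24, limma adjusted p = 0.0015). The margin was uneven, with 1.26 and 1.07 log2 units in cultures 2 and 3 and 0.17 in culture 1. With the median of the panel plus 3 scaled deviations the height was 0.33 and the limma call was lost (adjusted p = 0.14), and the gene was no longer above background on every array.

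The RefSeq sequences before the start sites of *SFN* and *SERPINB5* are shown because these genes are the members above background by probe sets without the mark _s_at, and both are classical targets of the p53 family. RefSeq entries were found for 4 of the 7 genes. Each line gives the 250 bases before the start site on the plus strand of GRCh38.p14, at chr1:26862899-26863148 for *SFN* and chr18:63476708-63476957 for *SERPINB5*. Capitals mark matches, on either strand, to the GC box GGGCGG and to TGANTCA, a loosened AP-1 pattern that allows any base (N) at its centre. On the printed strand this central base was T in *SFN* and A in *SERPINB5*, which is the same match read on opposite strands.
SFN: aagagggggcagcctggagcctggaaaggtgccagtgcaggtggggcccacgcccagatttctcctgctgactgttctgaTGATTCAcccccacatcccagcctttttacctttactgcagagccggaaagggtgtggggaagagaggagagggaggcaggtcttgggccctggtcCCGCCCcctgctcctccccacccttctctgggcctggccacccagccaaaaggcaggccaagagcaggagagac
SERPINB5: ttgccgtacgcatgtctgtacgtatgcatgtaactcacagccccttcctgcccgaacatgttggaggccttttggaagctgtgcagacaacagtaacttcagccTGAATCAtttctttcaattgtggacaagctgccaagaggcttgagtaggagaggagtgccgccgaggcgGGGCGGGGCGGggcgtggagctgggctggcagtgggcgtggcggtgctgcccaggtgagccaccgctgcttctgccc

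Each sequence held 1 match to the loosened AP-1 pattern, starting at -170 in *SFN* and at -146 in *SERPINB5* relative to the start site. Such a match was present in 6.57% of all 35116 sequences of the same length. The GC box matched at -74 in *SFN* and at -77 and -72 in *SERPINB5*, where the matches overlap by 1 base, and 42.6% of all sequences held it. The TATA box TATAAA, the CCAAT box, the E-box CACGTG and the p53 half-site RRRCWWGYYY had no match in either window. Of all sequences, 10.7%, 32.0%, 6.34% and 5.57% held them. In the half-site R is A or G, W is A or T, and Y is C or T. Only full matches were counted, so gaacatgttg in *SERPINB5*, which departs from the half-site at its last base, was not. The 6 motifs were chosen for this description, and a match is neither a binding site nor a cause of a level.

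*CEBPD* encodes C/EBPδ, a leucine zipper transcription factor. Its probe set 203973_s_at read 9.32, 9.33 and 9.46 in cultures 1, 2 and 3, or 9.37 ± 0.08 (SD, n = 3), and lay 2.01 ± 0.12 log2 units over the threshold (SE, limma adjusted p = 2.6e-08). The cultures hardly differed. The second probe set of the gene, 213006_at, read 3.83, 4.13 and 4.25 and was above background on no array. The call for *CEBPD* therefore rests on 1 probe set, whose suffix _s_at marks probes that can bind several transcripts, and without such probe sets the gene was not above background. It was also not above background when the 2 probe sets were averaged.

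*SOX9* encodes a transcription factor of the SOX family. Its brighter probe set, 202936_s_at, read 6.45, 7.01 and 7.33 in cultures 1, 2 and 3, or 6.93 ± 0.44 (SD, n = 3). These values straddled background, with 1.08 and 0.25 log2 units below the threshold in cultures 1 and 2 and 0.04 over it in culture 3. The mean lay 0.43 ± 0.18 log2 units under the threshold (SE), and with the 90th percentile of the panel as threshold it lay 0.012 over. The other probe set, 202935_s_at, read 5.09, 5.43 and 5.70 and was below background in every culture. Both probe sets were lowest in culture 1 and highest in culture 3.

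*TRIM29* encodes a tripartite motif protein abundant in basal cells of stratified epithelia. Its probe set 202504_at read 6.60, 6.14 and 5.95 in cultures 1, 2 and 3, and 211002_s_at read 6.02, 6.31 and 6.02. The third, 211001_at, read 5.92, 5.90 and 5.98. All 9 readings lay below the threshold of their array, by 0.92 to 1.61 log2 units, and the probe sets did not share an order of the cultures. A low array value does not show that the gene was silent.

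The spread of the members between cultures ranged widely and was smaller at the median without culture 1. Their median SD over the 3 cultures was 0.253, beside 0.143 for all probe sets of 1 gene and 0.147 for those above background. Without culture 1 these medians were 0.116, 0.0951 and 0.0855. The SD of *SERPINB5* exceeded that of 96.8% of the 5948 probe sets above background, and that of *SFN* at 209260_at exceeded 91.7%. Without culture 1 these SDs fell from 0.435 to 0.116 for *SERPINB5* and from 0.336 to 0.135 for *SFN* at 209260_at. They then exceeded 63.3% and 70.6% of the same probe sets. The widest member probe set, *SOX9* at 202936_s_at, went from 0.445 to 0.224 and stayed the widest. For *TRIM29* the SD rose without culture 1, at 211002_s_at from 0.170 to 0.209 and at 211001_at from 0.042 to 0.058. It also rose for *CEBPD* at 203973_s_at, from 0.077 to 0.091, and fell at all other member probe sets. Over the 3 cultures the SD of *CEBPD* at 203973_s_at exceeded 18.8% of the probe sets above background, and that of *SFN* at 33322_i_at 17.0%. That of *TRIM29* at 211001_at exceeded 6.19% of them, though this probe set itself lay below background on every array. Each culture was a single array, so no culture was tested against another.

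Culture 1 was the one apart from both others at 8 of 11 member probe sets. Over all 19071 probe sets of 1 gene it was culture 1 at 44.1%. Among probe sets above background it was culture 1 for 4 of 5 of the members and for 51.3% of all. The directions differed between genes, since culture 1 was high for the 3 probe sets of *SFN* and for *TRIM29* at 202504_at, and low for *SERPINB5*, for both probe sets of *SOX9* and for *CEBPD* at 213006_at. The part of the array of culture 1 in these differences was not tested. Without culture 1, *SFN*, *SERPINB5* and *CEBPD* were above background, as with all cultures, and no member was added. A call made on all 3 arrays also holds on fewer of them, so these genes could not have been lost.

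**Figure D2:**
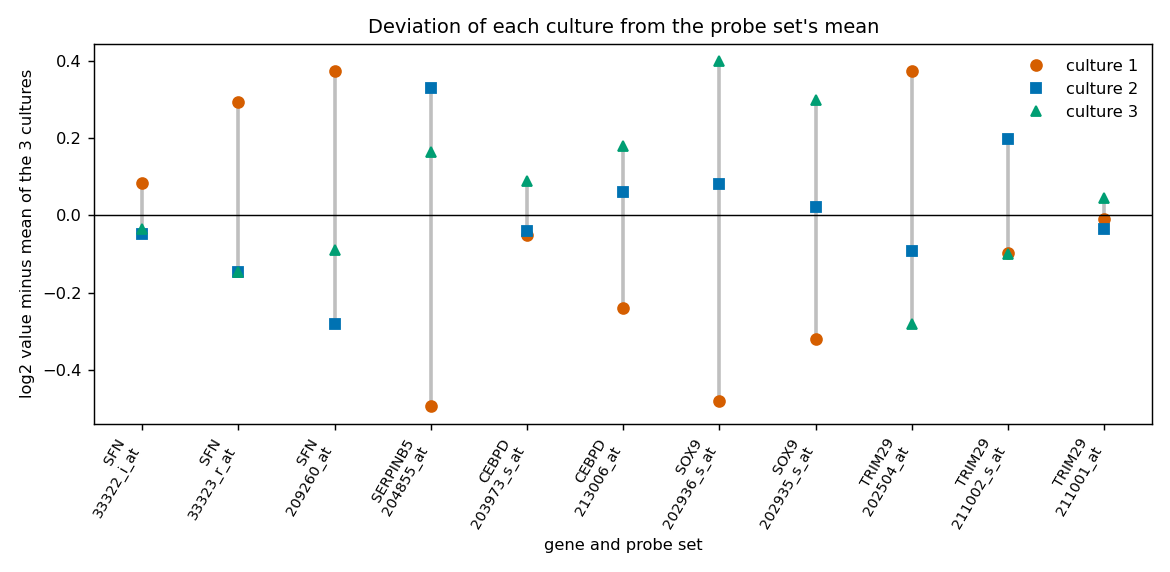
Log2 value of each culture minus the mean of the 3 cultures (vertical axis) for the 11 member probe sets (horizontal axis), with grey bars from the lowest to the highest culture. Culture 1 is the highest for SFN at all 3 probe sets and the lowest for SERPINB5 and SOX9, by up to 0.49 log2 units from the mean.

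The member above background of widest range was *SERPINB5*, at 0.82 log2 units. Of 4716 other genes above background, those nearest to it in the 3 deviations from their own mean were *PHF10*, at 8.45, 9.27 and 9.13 in cultures 1, 2 and 3, *ACP2* and *SLC36A1*, at Euclidean distances of 0.016, 0.031 and 0.038. Such a likeness was common, since 34 genes lay within a distance of 0.1, and it rests on 3 arrays. Culture 1 was the lowest for *PHF10*, *ACP2* and *SLC36A1* too.

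Of the 14-3-3 relatives of *SFN*, which bind the same kind of phosphorylated motif in most tissues, 4 of 5 measured were above background. *YWHAQ* and *YWHAB* read 12.42 ± 0.24 and 12.30 ± 0.16, *YWHAZ* 11.14 ± 0.11 and *YWHAE* 9.58 ± 0.39 (SD, n = 3 cultures), and *YWHAH* at 6.91 ± 0.11 was below background. Among genes whose products stratifin is known to bind, or which act with these, 7 of 10 were above background, as with the mitotic genes *CCNB1* (10.91 ± 0.23), *CDK1* (10.90 ± 0.19), *CDC25B* (10.20 ± 0.29) and *CDC25C* (8.99 ± 0.06) and the translation factor gene *EIF4B* (10.02 ± 0.22). *BAX*, *CDK2* and *TRIM25* were not, at 6.70 ± 0.34, 7.70 ± 0.19 and 7.10 ± 0.20. *CDK2* fell short of the threshold in culture 1 only, at 7.49.

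Of 8 measured clade B relatives of *SERPINB5*, 1 was above background, *SERPINB1*, an inhibitor of neutrophil proteases, at 9.59 ± 0.22 (SD, n = 3). *SERPINB8* (7.20 ± 0.35) exceeded the threshold in culture 3 only. *SERPINB9* read 6.94 ± 0.35, and *SERPINB3*, *SERPINB4*, *SERPINB7*, *SERPINB10* and *SERPINB13* had means from 4.02 to 5.54.

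Of the relatives of *CEBPD*, 3 of 5 were above background. *CEBPB* read 10.59 ± 0.20, *CEBPG* 8.78 ± 0.10 and the stress-induced *DDIT3* 8.73 ± 0.12 (SD, n = 3), and *CEBPA* and *CEBPE* were below at 7.23 ± 0.18 and 6.28 ± 0.21. Of 15 measured relatives of *SOX9*, 2 were above background, *SOX4* at 9.20 ± 0.47 and *SOX15* at 8.01 ± 0.11. *SOX4* read 8.70, 9.25 and 9.64 in cultures 1, 2 and 3, in the same order of cultures as both probe sets of *SOX9*. Its probe set 201418_s_at, also above background, kept this order at 7.73, 7.81 and 7.92. Another of its probe sets above background, 201416_at, read 8.90, 8.79 and 9.12, with culture 2 the lowest. *SOX1*, *SOX10*, *SOX11* and *SOX12* had means of 4.55, 6.97, 5.13 and 4.71.

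**Figure D3:**
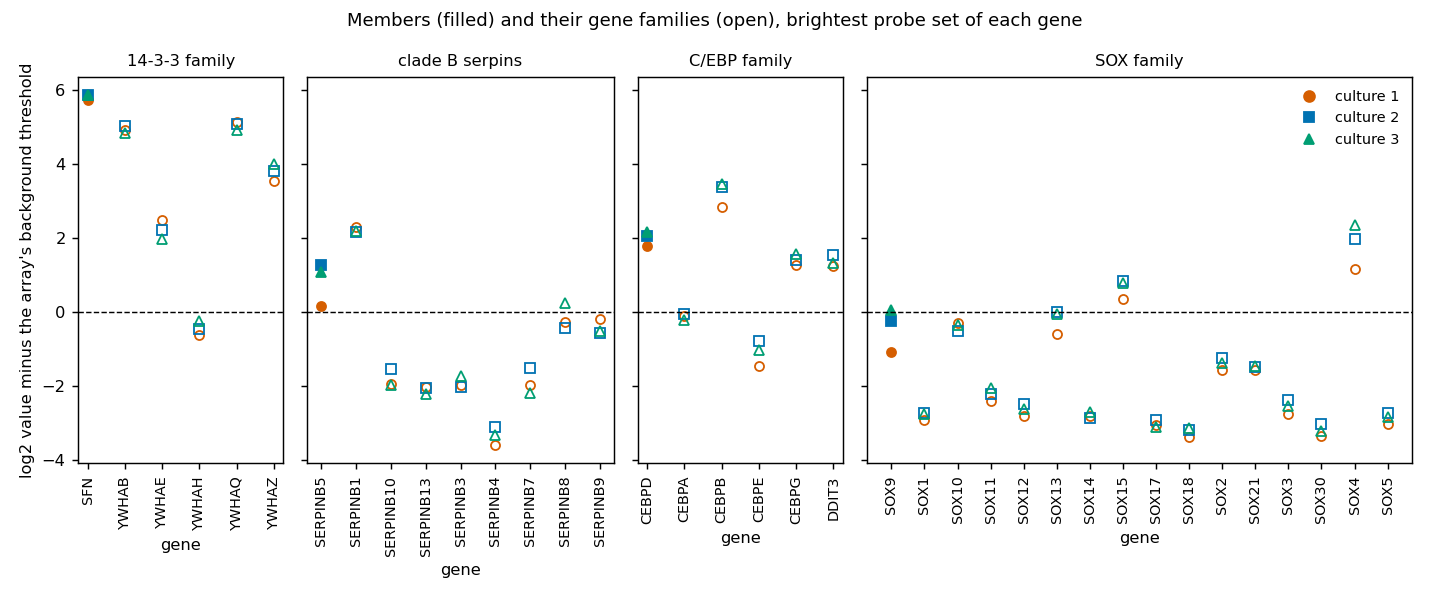
Log2 value minus the background threshold of the same array (vertical axis) in cultures 1, 2 and 3 for SFN, SERPINB5, CEBPD and SOX9 (filled) and their measured relatives (open), each gene at its brightest probe set. Above the dashed line at 0 lie 4 of 5 relatives of SFN and 1 of 8 relatives of SERPINB5, and levels of different genes are not amounts.

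Genes known as partners of the TRIM29 protein were above background in 5 of 6 cases. With the highest panel value as threshold, which was that of the panel gene *MBP* alone, the count was 0 of 6. They were the deubiquitinase gene *USP11* (9.32 ± 0.22), *DVL2* of Wnt signaling (8.73 ± 0.08), *CTNNB1* (8.58 ± 0.49), the ubiquitin ligase gene *RNF8* (8.14 ± 0.14) and the acetyltransferase gene *KAT5* (8.02 ± 0.41, SD, n = 3 for each). *HDAC9* was below at 6.50 ± 0.29. Of 8 other tripartite motif genes 4 were above background, *TRIM14*, *TRIM22*, *TRIM32* and *TRIM21*, with means from 8.10 to 9.64, and *TRIM2*, *TRIM3*, *TRIM16* and *TRIM25* were not. Some genes, such as *CDKN1A*, *BAX*, *TRIM25* and *KRT14*, belong to more than 1 of the groups described here.

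*TP63* itself was not analysed here, but genes known as its targets in basal epithelium were, and 10 of 19 were above background. *TFAP2A* read 10.82 ± 0.07, P-cadherin (*CDH3*) 10.62 ± 0.35, *IGFBP3* 9.82 ± 0.25, *TFAP2C* 9.29 ± 0.07 and the hemidesmosomal gene *DST* 8.55 ± 0.01 (SD, n = 3). The value of *DST* was from an _x_at probe set, and only 2 of its 8 probe sets were above background. For the others named this was 1 of 3 for *TFAP2A*, 1 of 2 for *TFAP2C*, 2 of 2 for *IGFBP3* and 1 of 1 for *CDH3*. For those not named it was 1 of 10 for *FGFR2*, 1 of 4 for *ITGB4*, 1 of 2 each for *ADA* and *JAG2*, and 1 of 1 for *ITGA3*. *BNC1* at 7.16 ± 0.05, *CLCA2* at 4.86 ± 0.05, the desmosomal *DSC3* at 5.38 ± 0.22 and the basal keratin *KRT14* at 4.94 ± 0.29 were not above background. Of 9 measured relatives and regulators of the p53 family, 3 were above background, the ubiquitin ligase gene *ITCH* (8.60 ± 0.13), *TP53BP2* (8.32 ± 0.31) and *PPP1R13L* (7.68 ± 0.24). *HIPK2*, *MDM2*, *MDM4* and *PPP1R13B* had means of 5.52, 6.16, 3.90 and 7.29, not above background. Without culture 1 the count was 5 of 9.

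Of 16 measured targets of p53 other than the members, 10 were above background. The cell cycle inhibitor gene *CDKN1A* read 10.33 ± 0.08, *CCNG1* 10.17 ± 0.15, the death receptor gene *TNFRSF10B* 9.50 ± 0.21, *GADD45A* 9.42 ± 0.43 and the repair gene *DDB2* 9.41 ± 0.15 (SD, n = 3). *BAX* at 6.70 ± 0.34, *MDM2* at 6.16 ± 0.26, *PLK3* at 7.36 ± 0.16 and *PMAIP1* at 8.15 ± 0.89 were not above background on every array.

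Of 18 measured markers of limbal progenitors beside the members, 5 were above background, or 27.8%, beside 39.5% of all measured genes. This count was not tested and was not read as a difference from the rest of the array. The 5 were *ENO1* (12.30 ± 0.06), *ITGB1* (12.25 ± 0.20), *ITGA6* (8.82 ± 0.10), *HES1* (8.44 ± 0.16) and the efflux transporter gene *ABCG2* (8.08 ± 0.26, SD, n = 3). Their probe sets above background were 2 of 3 for *ENO1*, 1 of 5 for *ITGB1*, 1 of 2 for *ITGA6*, 1 of 3 for *HES1* and 1 of 1 for *ABCG2*. *CDH2*, *FZD7*, *ITGA9* and *KRT14* were not, with means of 6.01, 6.62, 4.99 and 4.94. *KRT15* at 5.68 ± 0.19 and *KRT5* at 6.16 ± 0.16, named after their values were seen, were not either.

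*BMI1* acts in Polycomb repressive complex 1, which marks chromatin by ubiquitination of histone H2A. Of 13 other measured genes of this complex 7 were above background, among them the catalytic subunit gene *RING1* (9.38 ± 0.11), *PCGF2* (8.91 ± 0.07), the chromobox gene *CBX6* (8.88 ± 0.11), *RYBP* (8.69 ± 0.14) and *PHC2* (8.49 ± 0.05, SD, n = 3). *CBX2*, *PCGF3*, *PHC1* and *PHC3* were not, with means of 5.77, 6.70, 7.50 and 5.45. Of 6 measured genes reported as repressed by BMI1, 4 were above background, *CDKN1A*, *WWOX* (9.44 ± 0.47), *CDKN2A* and *ATF3* (9.20 ± 0.12), and *CDKN2B* and *HOXC13* were not, at 4.77 ± 0.09 and 6.12 ± 0.19. *CDKN2A*, which encodes the cell cycle inhibitor p16, read 9.85, 8.91 and 8.93 at its brightest probe set and 8.11, 8.35 and 8.97 at another, with culture 1 high at the first and low at the second.

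Counts of these gene groups depended on the threshold. With the highest panel value in place of the 95th percentile, 11 of the 13 moved by over 1.5 times. On every array that value was the reading of *MBP* alone, at 8.34, 9.26 and 9.20 in cultures 1, 2 and 3. This panel gene was itself above background. Group shares ran from 12.5% to 83.3%, beside 39.5% of all measured genes, and were not tested. Some calls rested on part of a gene's probe sets, such as 1 of 3 for *CDC25C* and 1 of 2 each for *YWHAE*, *DVL2* and *RNF8*. *CDK2*, *PHC1*, *TRIM16*, *PPP1R13B* and *PMAIP1* exceeded the threshold in cultures 2 and 3 but not in culture 1. Without culture 1 the counts were 8 of 10 for stratifin clients, 8 of 13 for Polycomb complex 1, 5 of 8 for TRIM relatives, 11 of 19 for p63 targets and 11 of 16 for p53 targets.

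**Figure D4:**
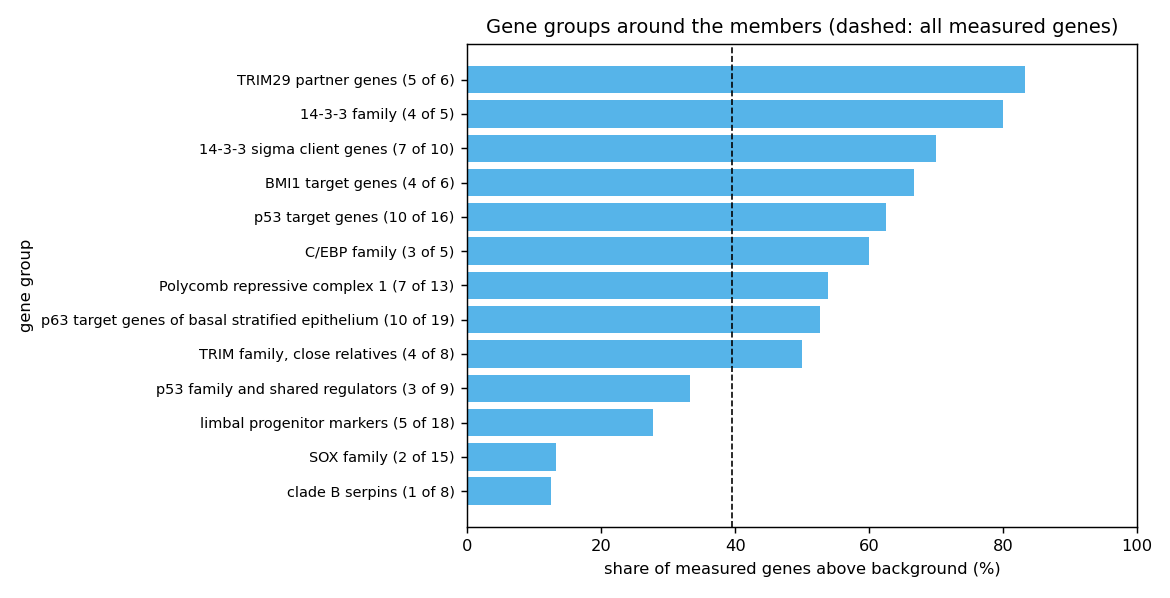
Percent of measured genes above background (horizontal axis) in 13 gene groups without the members, over 3 iHCE cultures, with the dashed line at all measured genes (39.5%). Partners of TRIM29 have the longest bar, with 5 of 6, and clade B serpins the shortest, with 1 of 8; small groups were not tested.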

How the data were processed

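Total RNA of 3 iHCE cultures was hybridized to HG-U133A arrays. The authors deposited log2 expression values per manufacturer's probe set, made with RMA. The submitters' processing notes name R 2.8.0. RMA corrects the background, brings the arrays to a common distribution and compresses low values. The methods describe RMA across all iHCE and tissue arrays with a custom probe set definition, which may not hold for the deposited table. A genome build was not given in the sources used here. Of 22283 rows, 19071 name 1 gene, 1043 several and 2169 none in the platform annotation, and symbols were updated through Entrez numbers with RefSeq (GRCh38.p14, names only).

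The background panel held 69 genes, 56 measured, of which 3 were above background themselves. The threshold is a percentile of this same panel, so a few of its genes lie over it by construction. Heights over the threshold were fitted with limma 3.58.1 in R 4.3.3 (intercept only, one-sided, Benjamini-Hochberg) and the step was tested on simulated data. The threshold was taken as known. The SD covers culture and technical variation, and 3 arrays limit the precision. The members, the 13 gene lists, the panel and the markers were chosen with earlier results of these data known.

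Named were all members with every probe set. Lists of up to 8 measured genes were named in full, and from longer ones the 5 highest over the threshold and 4 not above background in alphabetical order. The 3 genes nearest to the member of widest range were added. Alternatives were other thresholds, quantile normalization, other choices of probe sets, the limma test as the call, and leaving out each replicate. A panel without its genes above background and leaving out _i_at and _r_at probe sets were added after seeing the data.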

Additional observations from a re-analysis of the deposited data

How the results depend on the processing

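The members above background, *SFN*, *SERPINB5* and *CEBPD*, were the same 3 genes after quantile normalization and with the limma test as the call (5 probe sets each time). They were also the same with the 90th percentile as threshold and without any single culture (3 genes and 5 probe sets each time). A lower threshold or fewer arrays cannot remove a gene from the call, so those settings could only have added members. The brightest probe set of each gene alone gave the same 3 genes. The highest panel value, used next, was that of the panel gene *MBP* alone, which was itself above background. *SERPINB5* was lost with the highest panel value and with the panel median plus 3 scaled deviations, and *CEBPD* without _x_at and _s_at probe sets and with the mean over probe sets, which leaves 2 genes in each case. Member probe sets above background numbered 3 with the highest panel value, where *CEBPD* 203973_s_at was 0.44 over (limma adjusted p = 0.79), *SERPINB5* lay at -0.74 and *SFN* 209260_at at -0.81, and 3 of 9 when _i_at and _r_at probe sets were left out. *SOX9* 202936_s_at turned to 0.012 over with the 90th percentile and to 0.027 over with the panel without its genes above background.

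Gene groups moved more. With the highest panel value the counts were 0 for the p53 family, SOX family and TRIM29 partners, 1 for Polycomb complex 1, BMI1 targets, C/EBP family and TRIM relatives, 2 for limbal markers, and 4 for p63 targets, p53 targets and stratifin clients. With the median plus 3 scaled deviations they were 1 for the p53 and SOX families, 2 for TRIM relatives and 3 for TRIM29 partners. Without _x_at and _s_at probe sets they were 1 of 4 for the p53 family, 1 of 1 for BMI1 targets, 2 of 14 for limbal markers, 2 of 3 for the 14-3-3 family, 2 of 7 for TRIM relatives, 3 of 4 for TRIM29 partners, 5 of 15 for p63 targets and 6 of 8 for p53 targets. With the mean over probe sets they were 5 for p63 targets, 2 for limbal markers and 0 for the SOX family. The p53 family had 5 with the 90th percentile and with the reduced panel, and from 3 to 5 when 1 culture was left out, with 5 without culture 1. The other 127 group counts stayed within 1.5 times. Higher thresholds and fewer arrays or probe sets change counts by construction, and for the mean over probe sets the cause was not tested. No paired analysis was possible because there is 1 group. With 3 arrays and thresholds near many values, a gene not above background is not shown to be absent.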

Other observations

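One further probe set, 202265_at, is annotated both to *BMI1* and to the read-through gene COMMD3-BMI1 and was therefore kept out of the members. It read 7.97, 8.07 and 7.85 in cultures 1, 2 and 3, above the threshold of each array by 0.44, 0.80 and 0.57 log2 units. Its signal cannot be assigned to either gene.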
